A study of Mus musculus with 15 samples.

Results

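The hypothalamus of mice returned from dietary restriction (DR) to ad libitum feeding (AL) was compared with that of mice still on DR. Of the 15 libraries of the series, 2 enter this comparison, the hypothalamus library of the DR group and that of the group switched from DR to AL (DR-AL). The mice were male C57BL/6. DR was a food intake reduced by 40% from 4 months of age for 1 month, and the DR mice were killed at 5 months of age, together with mice fed AL throughout. The DR-AL mice had the same month of DR, were then fed AL for 2 months and were killed at 7 months of age, so that refeeding and age cannot be told apart. RNA of the mice of a group was pooled and gave 1 library per tissue and diet. No difference below therefore has a replicate check, and every interval covers counting error only. The AL hypothalamus library and the 3 hippocampus libraries, from the same mice, were used as a scale of reference.

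The hypothalamus joins many small cell groups (nuclei) around the third ventricle. Neurons of the arcuate nucleus that make agouti-related peptide (Agrp) and neuropeptide Y (Npy) drive feeding, and neighbouring neurons that make pro-opiomelanocortin (Pomc) restrain it. Orexin neurons of the lateral hypothalamus (Hcrt) sustain wakefulness and food seeking, while the paraventricular nucleus releases corticotropin-releasing hormone (Crh) and vasopressin (Avp). The tissue lies on the pituitary and the meninges and borders the thalamus, the basal forebrain and the optic nerves, so that the RNA of a dissected piece also depends on where it was cut. In bulk tissue, fewer cells of a type and less RNA per cell cannot be told apart.

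Of 33603 loci in the table, 23589 carried a gene name, and 19320 of these had at least 1 count over the 3 hypothalamus libraries. Between 29673910 and 32745522 counts per hypothalamus library fell on named genes. The summed level of 8 hypothalamic transcription factors was 223 CPM (counts scaled to a common total on named genes) in the AL hypothalamus, 181 in DR and 130 in DR-AL, against 3.72 to 8.62 CPM in the 3 hippocampus libraries, so that all 3 hypothalamus libraries carried the markers of their label. The study's own Z test was used, which sets the difference between 2 libraries against counting error. A gene was called up or down where the Benjamini-Hochberg adjusted value of that test was under 0.05 and the higher library exceeded the lower by at least 25%. Log2 fold changes are DR-AL over DR throughout.

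From DR to DR-AL, 1858 genes changed (9.62% of those tested), of which 545 rose (2.82%) and 1313 fell (6.8%). Where both libraries averaged at least 20 counts (15034 genes), 337 genes differed by 2-fold or more (2.24%). Of these, 66 were higher (0.439%) and 271 lower (1.8%) in DR-AL. The median log2 fold change of all genes tested was -0.03. With an assumed coefficient of variation of 0.2 between libraries, 112 genes were past the threshold in the exact test of edgeR, 17 up and 95 down. The share of changed genes that rose was 29.3% with library totals, 36.9% with DESeq2 size factors and 41.8% with FPKM (fragments scaled by transcript length and library) and a pseudocount of 0.1. With FPKM and a pseudocount of 1 it was 47.8% (407 up and 445 down). In both FPKM settings the fold and direction came from FPKM, while the Z test stayed on counts scaled by library totals.

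Genes were then divided by their level in the AL libraries, which take no part in the contrast. Of 960 genes at least 4-fold higher in the AL hypothalamus than in the AL hippocampus, 194 fell (20.2%) and 39 rose (4.06%), with a median log2 fold change of -0.14 (interval of the median -0.16 to -0.11). Of 415 genes at least 4-fold higher in the AL hippocampus, 89 fell (21.4%) and 47 rose (11.3%), and the median was -0.06 (-0.15 to 0.00). Of 11161 genes less than 2-fold apart in the AL libraries, here called even, 599 fell (5.37%) and 256 rose (2.29%), with a median of -0.03. Both classes of regional genes thus held larger shares of changed genes (24.3% and 32.8%) than the 9.62% over all genes, and the even genes a smaller share of 7.66%. The 2 regional classes made up 4.97% and 2.15% of the genes tested. In the hippocampus, the 960 hypothalamus-rich genes had a median of 0.22, with 120 up and 20 down.

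**Figure D1:**
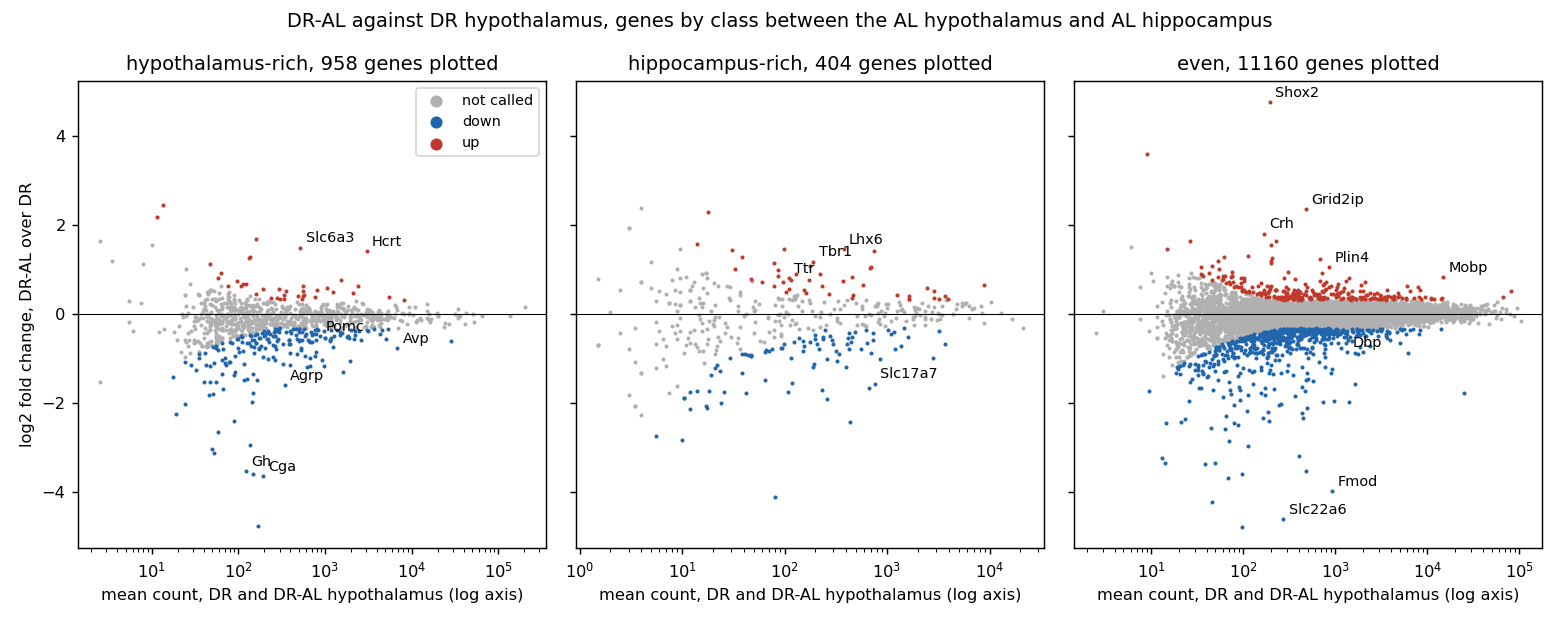
Log2 fold change of DR-AL over DR against the mean count of both hypothalamus libraries (log axis), in 3 panels for genes rich in the AL hypothalamus, rich in the AL hippocampus, or even between them; each point is a gene with counts in both libraries, red and blue mark genes called up and down. Regional and even genes both spread far below 0 (Cga at -3.65, Slc22a6 at -4.61) while most even genes lie close to 0.

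Markers of the thalamus, the relay nuclei that border the hypothalamus, rose. Of 7 thalamic genes, 6 rose and none fell, and their median log2 fold change was 1.53, against -0.03 over all genes. Shox2, a homeobox gene of thalamic neurons, had 14 AL, 14 DR and 375 DR-AL counts, a log2 fold change of 4.76 (95% interval 4.05 to 5.70). The homeobox gene Gbx2, which patterns the thalamus, had 12, 24 and 186 counts in AL, DR and DR-AL (2.997, interval 2.41 to 3.70). Counts of Prkcd, a protein kinase C isoform, were 342 in the AL, 431 in the DR and 1480 in the DR-AL library (1.85, interval 1.69 to 2.01). For Tcf7l2, a transcription factor of Wnt signalling, they were 770, 675 and 1865 (1.53, interval 1.41 to 1.66). DR-AL was the highest library for all 4 genes, and AL and DR lay far below it. In the hippocampus, none of the 7 was called.

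Some genes of the midbrain and the basal forebrain rose. Slc6a3, the dopamine transporter, had 313, 281 and 756 counts in AL, DR and DR-AL (log2 fold change 1.496, interval 1.30 to 1.70), and En1, a transcription factor of midbrain dopamine neurons, had 3, 5 and 38. These were the 2 of 6 midbrain and hindbrain genes that were called, and the only 2 that averaged at least 20 counts. The others had too few counts to be read as unchanged. Of 8 genes of basal forebrain cholinergic neurons, a list chosen after the values were seen, 7 rose, with a median of 1.26. Lhx8, which specifies these neurons, had 2 AL, 26 DR and 220 DR-AL counts (3.13, interval 2.56 to 3.80). Chat, the enzyme that makes acetylcholine, had 32, 80 and 184 counts (1.27, interval 0.88 to 1.67). For Lhx8 and Chat, DR already lay above AL, while the 8 genes summed to 20.7 CPM in the AL, 20.4 in the DR and 46.9 in the DR-AL library. In the hippocampus, 6 of the 8 also rose, Chat from 1 count in DR to 22 in DR-AL and Lhx8 from 0 to 12. Lhx6, a transcription factor of forebrain interneurons, had 100, 207 and 545 counts in the hypothalamus (1.46), and Sp9, another forebrain transcription factor, had 33, 52 and 159 (1.67).

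Genes of excitatory neurons of the cortex and hippocampus did not move together. Of 9 such genes, 3 rose and 5 fell. Slc17a7, their vesicular glutamate transporter, had 58 AL, 1147 DR and 368 DR-AL counts (log2 fold change -1.57, interval -1.74 to -1.40), and Tbr1, a transcription factor of deep cortical layers, had 30, 121 and 261 (1.18, interval 0.86 to 1.502). The median level of the 9 genes was 0.979% of that in the AL hippocampus in the AL hypothalamus, 5.50% in DR and 6.74% in DR-AL. Their median log2 fold change was -0.63, and their sum was 114 CPM in the DR and 77.8 CPM in the DR-AL library, so that these summaries differ in direction. The DR library was the highest for Slc17a7 and the DR-AL library for Tbr1. Among 9 striatal genes, 3 fell and 1 rose, while all 9 rose in the hippocampus. None of 5 habenular genes was called in the hypothalamus.

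Genes of the pituitary, the gland that hangs below the hypothalamus, fell. Of 9 pituitary genes, 8 fell, with a median log2 fold change of -2.64. Cga, the shared alpha subunit of the glycoprotein hormones, had 253 AL, 361 DR and 27 DR-AL counts (-3.65, interval -4.29 to -3.11). Growth hormone (Gh) had 88, 224 and 18 counts (-3.53, interval -4.35 to -2.87). The order was AL and DR high and DR-AL low for both. In the hippocampus, Cga had no count in any library. The pituitary gene that was not called, Pou1f1, had 0, 2 and 0 counts.

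All 7 meningeal fibroblast genes fell, with a median of -1.83. Igf2, a growth factor that meninges and choroid plexus make, had 1977 AL, 5792 DR and 866 DR-AL counts (log2 fold change -2.67, interval -2.78 to -2.57). Their summed level was 139 CPM in the AL, 310 in the DR and 71.3 in the DR-AL library, so that DR stood above AL and DR-AL below it. Of 9 solute carriers of the meninges, a list chosen after the values were seen, all 9 fell, with a median of -3.60. Slc22a6, which carries organic anions, had 163, 526 and 20 counts (-4.61, interval -5.37 to -4.01), and Slc13a4, a sulfate transporter, had 324, 1040 and 66 (-3.90). Fmod and Ogn, small proteoglycans of connective tissue, fell from 1756 to 105 and from 894 to 73 counts. Aldh1a2, which makes retinoic acid, fell from 736 to 77, and Crabp2, which binds it, from 199 to 24. Slc22a6, Fmod, Ogn, Aldh1a2 and Crabp2 are even between the AL libraries (Slc22a6 at a log2 ratio of -0.02, Fmod at -0.03), so that the division by region did not set them apart, whereas Slc13a4 lies at -1.02. Ptgds, prostaglandin D2 synthase, was named after its values were seen as the most abundant gene with a fall of this size, with 15191, 39392 and 10998 counts (-1.77).

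Of 6 genes of the smooth muscle and pericytes of vessels, 4 fell, with smooth muscle actin (Acta2) at 310, 916 and 414 counts in AL, DR and DR-AL (log2 fold change -1.08, interval -1.25 to -0.91). Of 7 genes of antigen presentation by MHC class II, a list added after the values were seen, 6 fell, and H2-Aa had 99, 162 and 39 counts (-1.97). Lens and retina genes, added in the same way, were also present. The lens crystallin Crybb2 had 187 AL, 295 DR and 0 DR-AL counts, at least 93.7-fold lower with a count of 0 taken as up to 3. Over these lists, 10 of 15 crystallins and 7 of 14 photoreceptor genes fell and none rose, where 6.8% of all genes fell. Only 9 of the crystallins and 5 of the photoreceptor genes averaged at least 20 counts. Some of these calls thus rest on few counts, and genes with few counts cannot be read as unchanged. The crystallins summed to 161 CPM in the DR and 134 CPM in the DR-AL library. Further regional genes with steep falls were the crystallin Cryaa, with 138, 328 and 11 counts (-4.77), the betaine transporter Slc6a12, with 121, 225 and 10 (-4.36), the toxin and drug exporter Slc47a1, with 171, 272 and 21 (-3.60), the joint lubricant Prg4, with 214, 499 and 43 (-3.45), and E-cadherin (Cdh1), with 142, 239 and 21 (-3.41). All 5 were highest in DR and lowest in DR-AL. Slc6a12 and Slc47a1 are also members of the list of solute carriers of the meninges, and Cryaa of the crystallins. Their falls are thus already counted in those lists. The meningeal fibroblast genes fell from 310 to 71.3 CPM in these 2 libraries, and their part in the falls of the vessel, MHC and lens genes was not tested.

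**Figure D2:**
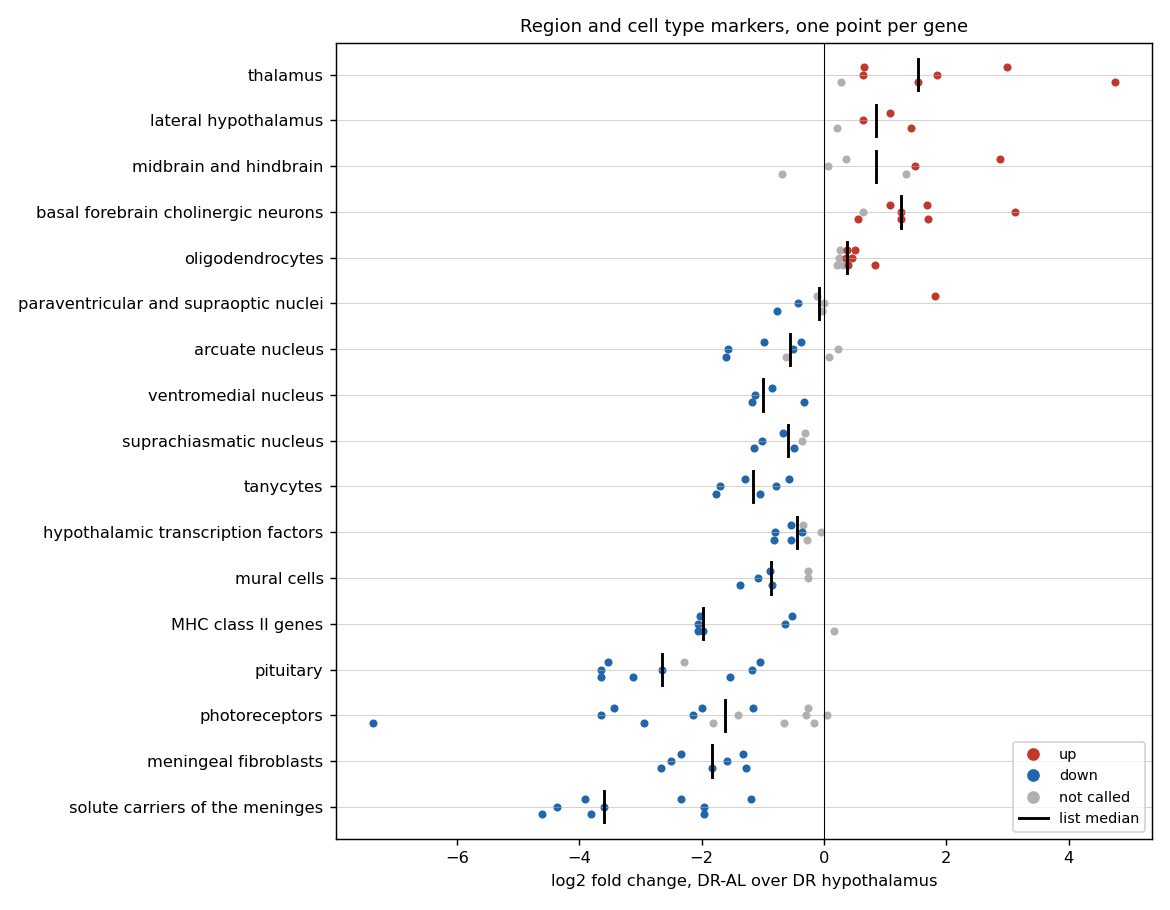
Log2 fold change of DR-AL over DR in the hypothalamus for each gene (points) of 17 lists of region and cell type markers, with the list median as a black bar; red and blue mark genes called up and down, grey those not called. Thalamic genes lie to the right (median 1.53), and pituitary and meningeal genes to the left (medians -2.64 and -1.83).

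Within the hypothalamus, genes of tanycytes and of the ventromedial nucleus fell. All 6 genes of tanycytes, the cells that line the floor of the third ventricle, fell, with a median log2 fold change of -1.17. They summed to 215 CPM in the AL, 160 in the DR and 73.1 in the DR-AL hypothalamus. In the hippocampus libraries they summed to 295 to 357 CPM, so the list is not confined to the hypothalamus. Rax, the transcription factor that marks tanycytes, had 295 AL, 234 DR and 65 DR-AL counts (-1.77, interval -2.20 to -1.38), and the orphan receptor Gpr50 had 1844, 1260 and 583 (-1.04). Dio2, which activates thyroid hormone, had 455, 720 and 400 (-0.78). All 4 genes of the ventromedial nucleus fell (median -0.99), among them Nr5a1, the transcription factor that defines it, with 1297, 878 and 368 counts (-1.18, interval -1.36 to -1.01). Of 6 genes of the suprachiasmatic nucleus, 4 fell, and the peptide Vip had 317, 668 and 314 counts (-1.02). Of 4 dorsomedial genes, 2 fell and none rose, with a median of -0.12 and Prdm13 at 199, 148 and 79 counts (-0.83). For Rax, Gpr50 and Nr5a1 the counts went down from AL to DR and further to DR-AL. With an assumed coefficient of variation of 0.1, 5 tanycyte, 3 ventromedial and 2 suprachiasmatic genes were called, and at 0.2, 2 tanycyte genes and none of the ventromedial, suprachiasmatic or dorsomedial genes.

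In the arcuate nucleus, 5 of 8 genes fell and none rose, with a median log2 fold change of -0.56. Npy (chr6:49822710-49829507, GRCm38) had 2527 AL, 2458 DR and 790 DR-AL counts (-1.57, interval -1.69 to -1.45). Agrp had 440, 525 and 165 counts (-1.60, interval -1.86 to -1.35). AL and DR lay close together for both peptides, and DR-AL was the low one. Pomc (chr12:3954951-3960642) had 2980, 1052 and 708 counts (-0.50, interval -0.64 to -0.36), so that most of its fall lay between AL and DR, and the DR-AL library was lower again. Tbx3, a transcription factor of arcuate neurons, had 1343, 919 and 442 (-0.99, interval -1.15 to -0.82). The satiety peptide Cartpt was not called, with 2658, 1797 and 1815 counts (0.08, interval -0.01 to 0.18). Npy also comes from interneurons of the hippocampus, where it had a log2 fold change of 0.01. With an assumed coefficient of variation of 0.2, Npy and Agrp kept their calls and the other 3 lost them. The 8 arcuate genes summed to 383 CPM in the AL, 243 in the DR and 165 in the DR-AL library. Between DR and DR-AL the thalamic genes rose from 114 to 245 CPM and the pituitary genes fell from 32.7 to 5.51 CPM, and the part of such shifts between regions in the changes of arcuate, tanycyte and lateral genes was not tested.

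Most listed genes of the lateral hypothalamus moved the other way. Of the 4 genes in that list, 3 rose and none fell, with a median of 0.85. Hcrt (chr11:100761069-100762931), the orexin precursor, had 679 AL, 1705 DR and 4346 DR-AL counts (log2 fold change 1.42, interval 1.34 to 1.501). Its counts went up from AL to DR and again to DR-AL. Tacr3, the neurokinin B receptor, had 396, 448 and 661 counts (0.63, interval 0.46 to 0.81), and Lhx9, a transcription factor, 69, 118 and 237 (1.07, interval 0.75 to 1.41). Pmch, the precursor of melanin-concentrating hormone, was not called, with 4179, 6062 and 6661 counts (0.21, interval 0.16 to 0.26). Hcrt kept its call at a coefficient of variation of 0.1 and lost it at 0.2.

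Among the 6 genes of the paraventricular and supraoptic nuclei, Crh (chr3:19693401-19695396) rose, with 50 AL, 77 DR and 258 DR-AL counts (log2 fold change 1.81, interval 1.44 to 2.20). Vasopressin (Avp) fell, with 13982, 8745 and 4920 counts (-0.76, interval -0.81 to -0.71), as did the transcription factor Otp (-0.42). Oxytocin (Oxt) was not called, with 4960, 5230 and 4994 counts (0.00, interval -0.05 to 0.06), nor was Trh, with 2098, 4228 and 3739 (-0.11). Genes of the same nuclei thus went in both directions. Crh is also made outside the hypothalamus, and in the hippocampus it had 72, 36 and 58 counts in AL, DR and DR-AL (0.99, called up). It kept its call at a coefficient of variation of 0.2. Of 7 genes of the mammillary and posterior hypothalamus, 2 fell and 1 rose (median 0.07). Hdc, which makes histamine there, was among those that fell, with 3447, 2673 and 1220 counts (-1.06). Of the 8 hypothalamic transcription factors, 5 fell and none rose (median -0.45), with Bsx, which Agrp and Npy neurons need, at 971, 692 and 376 counts (-0.81).

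**Figure D3:**
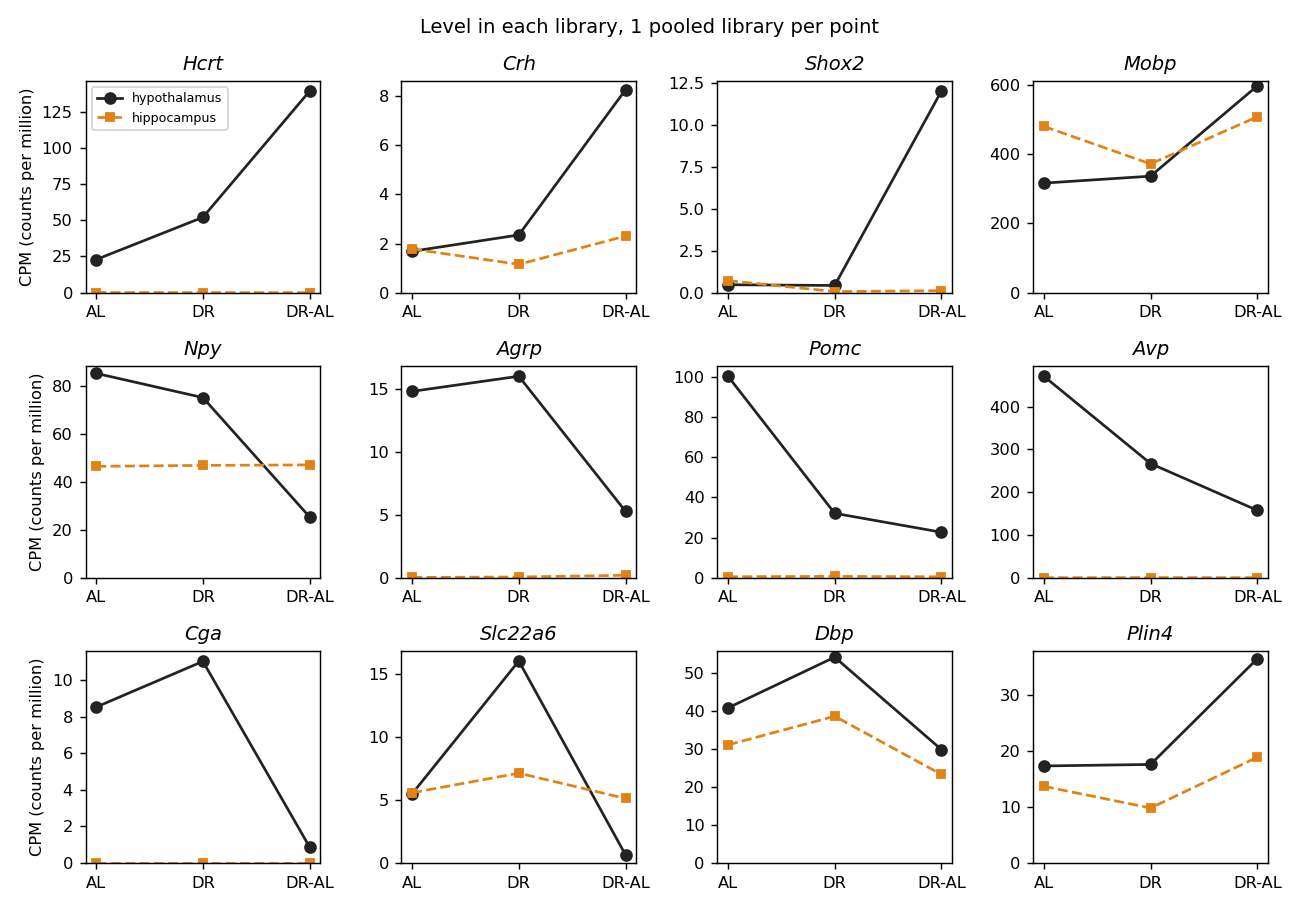
Level of 12 genes in CPM (linear axes from 0) in the AL, DR and DR-AL libraries of the hypothalamus (black circles) and hippocampus (orange squares), 1 pooled library per point. In the hypothalamus, Hcrt, Crh, Shox2, Mobp and Plin4 are highest in DR-AL, Npy, Agrp, Pomc and Avp lowest there, and Slc22a6 and Dbp are highest in DR.

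Over the whole list of 27 neuropeptides, 11 fell and 4 rose, with a median log2 fold change of -0.11. Besides those above, tachykinin 1 (Tac1) fell, with 3678, 3196 and 2048 counts (-0.57), as did the orexigenic peptide Qrfp, with 206, 244 and 83 (-1.48), and prodynorphin (Pdyn), with 4026, 2560 and 1865 (-0.39). Vgf, a granin-like precursor, rose, with 7448, 8431 and 10561 counts (0.39). The peptide gene Nts also rose (0.91), and it kept its call at an assumed coefficient of variation of 0.1. Of 20 receptors for appetite signals and hormones, 6 fell and 1 rose. The leptin receptor Lepr had 533, 512 and 277 counts (-0.82, interval -1.03 to -0.60), the ghrelin receptor Ghsr 626, 585 and 377 (-0.56), and the melanocortin receptor Mc3r 559, 410 and 245 (-0.67). DR-AL was the lowest library for all 3 receptors. Mc4r was not called, with 158, 194 and 171 counts (-0.11, interval -0.42 to 0.19).

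Of 10 oligodendrocyte genes, 6 rose and none fell, with a median log2 fold change of 0.37. With an assumed coefficient of variation of 0.1, Mobp alone was called, and at 0.2 none was. Mobp, a myelin protein, had 9388 AL, 11017 DR and 18634 DR-AL counts (0.83, interval 0.79 to 0.86), and myelin basic protein (Mbp) had 54957, 68654 and 93488 (0.51, interval 0.50 to 0.53). Both went up from AL to DR and again to DR-AL. None of 5 genes of oligodendrocyte precursors was called. The 2 astrocyte genes of 8 that were called both fell, Gfap from 8173 to 4264 counts (-0.87) and the water channel Aqp4 from 4427 to 2898 (-0.54), whereas the glutamate transporter Slc1a2 had 40961 and 38683 (-0.01). Of 10 microglial genes, 1 fell, and of 8 endothelial genes, 1 rose, the tight junction gene Cldn5 (0.74). Over all genes, 6.8% fell and 2.82% rose, so 1 call in so short a list is not read as a result for these cells. Of 4 genes of red blood cells, 3 fell. Choroid plexus genes were divided, 3 up and 3 down of 9, with Ttr at 124, 82 and 137 counts, while all 9 rose in the hippocampus. Of 6 genes of ciliated ependyma, 2 fell.

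Genes of the circadian clock fell. Of 16 such genes, 9 fell and none rose, with a median log2 fold change of -0.39. Dbp, a transcription factor that the clock drives, had 1209 AL, 1771 DR and 930 DR-AL counts (-0.86, interval -0.98 to -0.74). Ciart, a clock repressor listed under its older symbol Gm129, had 482, 683 and 330 (-0.98, interval -1.17 to -0.79). Nr1d1, the heme receptor Rev-erb alpha, had 3492, 4760 and 3028 (-0.58), and the period genes Per1, Per2 and Per3 had log2 fold changes of -0.48, -0.48 and -0.54. Scaled to the library total, DR was the highest of the 3 libraries for 5 of these 6 genes, and Per3 was level between AL and DR. In the hippocampus, 4 of the 16 fell, among them Dbp (-0.73) and Ciart (-0.93). The activators Arntl, Clock and Npas2 were not called in the hypothalamus. With FPKM and a pseudocount of 0.1, Per2, Hlf, Nr1d2 and Bhlhe41 lost their calls. At a coefficient of variation of 0.1, Dbp and Ciart kept them, and at 0.2 no clock gene did. The time of day at which tissue was taken is not given in the sources used here, and its part in this result was not tested.

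The upstream sequences of 4 of the clock genes that fell are shown because they hold letters that clock factors read. The 250 bases before the most upstream listed start of each gene were taken from RefSeq (GRCm38.p6). They were searched for CACGTG, the E-box that Clock and Arntl bind, which reads the same on both strands. They were also searched for TTATGTAA and its reverse complement TTACATAA, a D-box form that Dbp and its relatives bind. Of the 16 clock genes, 14 matched an entry. Motifs are in capitals, and sequences run 5′ to 3′ on the strand of the gene. Per1 (chr11:69098699-69098948, plus strand), Ciart (chr3:95882229-95882478, minus strand) and Bhlhe41 (chr6:145865421-145865670, minus strand) hold E-boxes, and Per3 (chr4:151044666-151044915, minus strand) holds the D-box letters at 2 places.
Per1: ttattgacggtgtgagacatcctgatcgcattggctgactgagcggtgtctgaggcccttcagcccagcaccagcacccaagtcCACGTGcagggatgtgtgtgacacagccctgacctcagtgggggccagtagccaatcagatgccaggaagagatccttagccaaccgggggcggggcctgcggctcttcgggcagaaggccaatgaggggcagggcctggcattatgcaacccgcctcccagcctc
Ciart: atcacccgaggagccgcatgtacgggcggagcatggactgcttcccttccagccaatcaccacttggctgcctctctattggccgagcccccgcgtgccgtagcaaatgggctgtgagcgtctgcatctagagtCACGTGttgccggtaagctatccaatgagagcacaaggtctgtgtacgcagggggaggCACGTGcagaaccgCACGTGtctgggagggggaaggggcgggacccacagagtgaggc
Bhlhe41: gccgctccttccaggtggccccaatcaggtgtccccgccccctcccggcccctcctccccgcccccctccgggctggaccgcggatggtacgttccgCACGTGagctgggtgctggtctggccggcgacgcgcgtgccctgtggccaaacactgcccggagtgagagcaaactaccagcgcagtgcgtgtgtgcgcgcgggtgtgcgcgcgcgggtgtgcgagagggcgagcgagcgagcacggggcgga
Per3: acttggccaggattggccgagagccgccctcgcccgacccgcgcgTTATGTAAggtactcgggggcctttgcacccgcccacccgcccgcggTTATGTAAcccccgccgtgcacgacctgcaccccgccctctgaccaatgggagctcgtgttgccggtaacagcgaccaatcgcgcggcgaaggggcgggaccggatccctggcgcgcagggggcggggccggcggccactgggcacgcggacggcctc
An E-box stood in 3 of the 8 clock genes that fell and matched an entry, in 2 of the 6 that were not called, and in 6.02% of 32851 upstream sequences in all. The D-box letters stood in 1 of the 8, in none of the 6 and in 0.819% of all. Dbp, Nr1d1, Nr1d2 and Hlf fell and had neither motif in this window. The 32851 sequences belong to 27025 gene symbols, some with several starts, whereas 1 start was searched per clock gene. Other starts of Per1, Arntl, Clock and Tef were not searched.

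Of 12 immediate early genes, which neurons switch on with activity, 5 fell and none rose, with a median log2 fold change of -0.31. Nr4a1, an orphan nuclear receptor, had 633, 941 and 564 counts in AL, DR and DR-AL (-0.67, interval -0.82 to -0.52), and Junb, an AP-1 subunit, had 587, 784 and 518 (-0.53). Fos was not called, with 620, 990 and 791 (-0.25, interval -0.39 to -0.12). DR was the highest library for all 3. At a coefficient of variation of 0.1, 1 of the 12 was called, and at 0.2 none. In the hippocampus, 7 of the 12 fell. Of 11 glucocorticoid targets, 3 rose and 2 fell. The lipid droplet protein Plin4 had 513, 575 and 1136 counts (1.05, interval 0.91 to 1.20), the cell cycle inhibitor Cdkn1a 445, 514 and 933 (0.93, interval 0.77 to 1.09) and the kinase Sgk1 2474, 4120 and 5435 (0.47). Fkbp5, a chaperone of the glucocorticoid receptor, fell, with 1576, 2020 and 1388 (-0.47), as did Per1. The list thus had no common direction.

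Some targets of the fatty acid receptors of the PPAR family, a list added after the values were seen, rose in both brain regions, among them Plin4 above. Angptl4, a secreted inhibitor of lipoprotein lipase, had 162, 126 and 287 counts in the AL, DR and DR-AL hypothalamus (log2 fold change 1.254, interval 0.95 to 1.57) and 143, 67 and 155 in the hippocampus (1.51). Of the 10 genes, 3 rose and 2 fell in the hypothalamus, the latter Plin2 (-0.44) and Cidea (-0.44). Of 14 genes of cholesterol synthesis and uptake, 13 were tested and 1 fell, Idi1 (-0.36), while 6 fell in the hippocampus. Over all genes, 6.8% fell in the hypothalamus and 1.26% in the hippocampus. Scd1, a desaturase that makes monounsaturated fatty acids, was listed at 0 in the DR library of all 5 tissues and between 1252 and 756056 counts in the 10 other libraries, with 12276 and 12053 in the AL and DR-AL hypothalamus. It was the only named gene with this pattern, counts among the 545 genes called up, and is given no fold change.

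Of 10 interferon and MHC class I genes, 5 fell, with Ifit3, an interferon-induced antiviral gene, at 520, 630 and 267 counts (log2 fold change -1.17, interval -1.38 to -0.96) and Ifit1 at 170, 241 and 142 (-0.69). Of 7 genes of thyroid hormone handling and response, 4 fell and 1 rose, with the receptor Thrb at 1567, 1309 and 919 counts (-0.44). Of 9 cytosolic heat shock genes, 2 fell, where 6.8% of all genes fell. Among 79 ribosomal protein genes, 1 fell, and the median of -0.08 lay near that of all genes. No member was called among 84 nuclear genes of the respiratory chain (median 0.06), 9 chaperones of the endoplasmic reticulum, 8 enzymes and readers of DNA methylation, 7 genes of colon epithelium and 5 sex-linked genes.

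**Figure D4:**
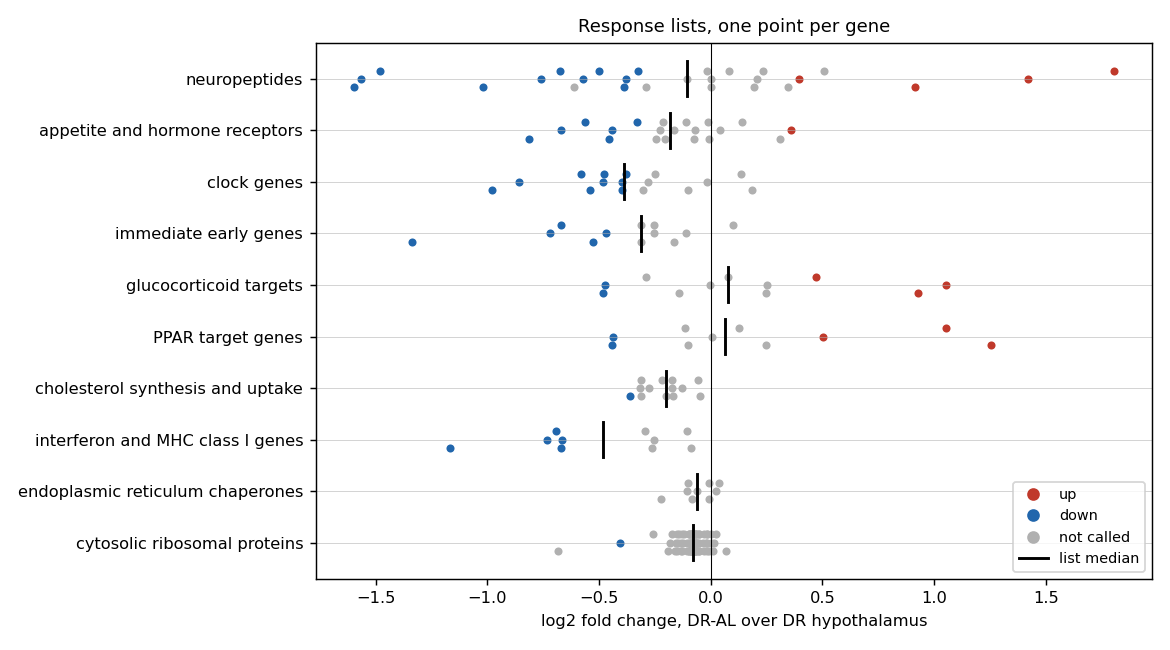
Log2 fold change of DR-AL over DR in the hypothalamus for each gene (points) of 10 lists of peptides, receptors and responses, with the list median as a black bar; red and blue mark genes called up and down. Clock and immediate early genes lie mostly below 0 (medians -0.39 and -0.31), and chaperones and ribosomal proteins cluster near 0.

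Among genes even between the AL libraries and in none of the region lists, the largest rise after Scd1, at an average of 100 counts or more, was that of Grid2ip, a scaffold of glutamate receptors of the delta type, with 95, 162 and 797 counts in AL, DR and DR-AL (log2 fold change 2.36, interval 2.12 to 2.62). Cdh23, a cadherin, had 53, 114 and 342 (1.65), and Ramp3, a partner of calcitonin family receptors, had 82, 106 and 298 (1.56). The developmental transcription factor Pax6 had 112, 126 and 277 (1.20), and Synpo2, an actin-binding protein, 394, 423 and 951 (1.24). Trhr2, a receptor of thyrotropin-releasing hormone, had 45, 66 and 157 counts (1.31), and Rab37, a GTPase of secretory vesicles, 78, 127 and 271 (1.16). AL and DR were close for Ramp3, Pax6 and Synpo2, and DR-AL was the high library for all 7. Besides the genes above, the falls were led by Ranbp3l, with 120, 320 and 57 counts (-2.41), Serpind1, heparin cofactor, with 109, 278 and 52 (-2.34), Islr, with 455, 720 and 146 (-2.23), and Angptl2, with 138, 310 and 64 (-2.20). In each of these 4, DR was the highest library and DR-AL the lowest.

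The same contrast in the hippocampus, with no library in common, gave 918 changed genes of 18804 (4.88%), 682 up (3.63%) and 236 down (1.26%). Of 18389 genes tested in both regions, 91 rose in both, which was 17.1% of the genes that rose in the hypothalamus and 13.4% of those in the hippocampus. A further 47 fell in both, 3.65% of those that fell in the hypothalamus and 47 of 235 in the hippocampus. Those that fell in the hypothalamus and rose in the hippocampus numbered 105 (8.15% and 15.4%), and 12 did the reverse. Plin4 (1.05 in the hypothalamus and 0.94 in the hippocampus, log2 fold changes), Cdkn1a (0.93 and 1.10), Cldn5 (0.74 and 0.87), Scn4b, a sodium channel subunit (1.03 and 1.14), and Phyhd1 (0.84 and 0.94) rose in both. Dbp, Ciart, Nr4a1, Junb and Myoc, the glaucoma gene myocilin (-1.48 and -0.73), fell in both. At a coefficient of variation of 0.1, 9 genes rose in both, 2 fell in both and none had opposite calls.

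**Figure D5:**
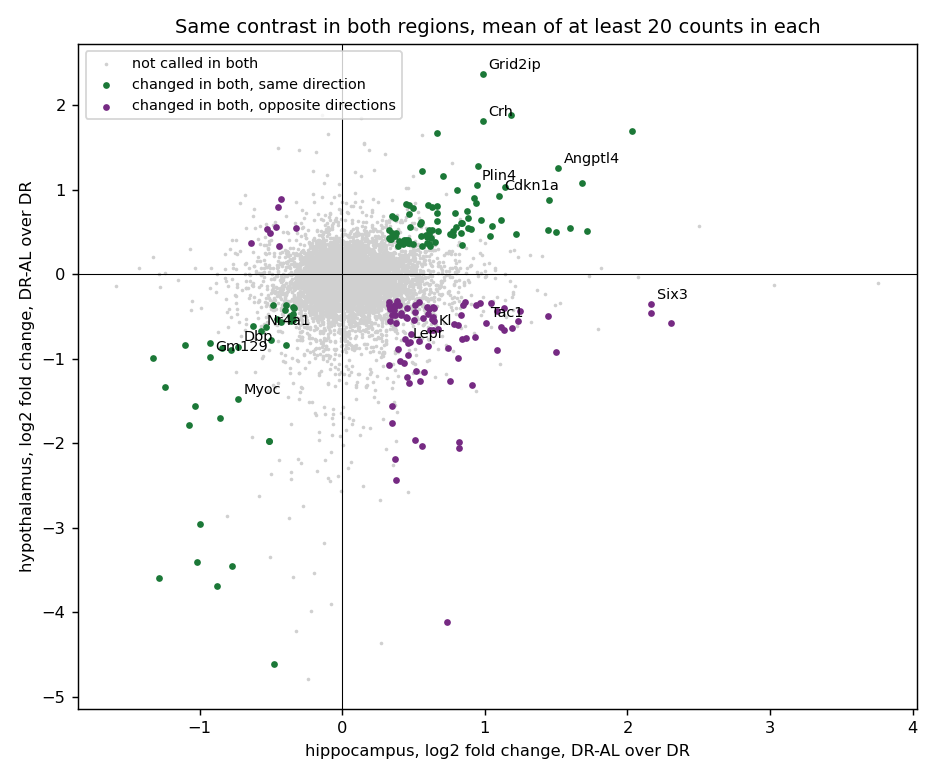
Log2 fold change of DR-AL over DR in the hypothalamus (vertical axis) against the hippocampus (horizontal axis) for 14043 genes that averaged 20 counts or more in each region, without Scd1; green and purple points are genes called in both regions in the same or in opposite directions. In the plot, 120 genes share a direction and 97 do not, with Grid2ip and Angptl4 at the upper right and Six3 at the lower right.

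The genes taken to real-time PCR by the study in this tissue were read in these 2 libraries as well. Crh and Hcrt rose and Pomc fell, with the counts given above. Csf2rb, a cytokine receptor chain, had 53, 58 and 36 counts in AL, DR and DR-AL and was not called (log2 fold change -0.61, interval -1.26 to 0.01). The reference gene Actb, cytoplasmic actin, had 24663, 26722 and 22851 counts and was not called, its change being under 25% (-0.16, interval -0.18 to -0.13). Pomc lost its call at an assumed coefficient of variation of 0.1.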

How the data were processed

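RNA-Seq of hypothalamus and hippocampus was used, 1 pooled library per tissue and diet. Per the labels and methods, the authors removed ribosomal RNA, trimmed, aligned and deduplicated the reads with the strand kept, and deposited whole-number counts without normalization and FPKM values, whose scaling between libraries is not given in the sources used here. The methods name mm10 and the submitters' processing notes mm9. Of 21384 symbols matched to GENCODE M21 (GRCm38), 13.6% overlap the annotated position, so the coordinates printed are those of GENCODE M21.

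Counts on named loci were divided by their total (2 libraries of 31204690 and 32745522 counts in the contrast). Square roots were compared on Poisson variance. Log2 fold changes use a pseudocount of 0.5, and 95% intervals are exact Clopper-Pearson intervals of a ratio of 2 counts. Loci without a name took 0.718% to 0.739% of counts. The test was tried on counts simulated with Poisson error alone, with 2-fold changes planted in genes above a minimum expected count. It found 195 of 200 changed genes in the hypothalamus, with 13 false calls among 19320. Variation between libraries was not simulated, so these figures do not give the rate of false calls in the data. Loci that merge several genes, 677 in all, cannot be split.

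The genes and the 40 lists were chosen with earlier results of these data known, and 6 further lists after the values were seen. Genes named are list members, those taken to real-time PCR, and, with a mean of at least 100 counts and a single gene name, the 10 largest changes in each direction among regional and among even genes. A few genes that meet the rule are left out of the text. Ptgds, Scn4b, Phyhd1 and Myoc were chosen after their values were seen, as were the added lists. Tools were R 4.3.3, edgeR 4.0.16, DESeq2 1.42.0 (size factors), Python 3.11.15 and SciPy 1.17.1. Alternatives were DESeq2 size factors, TMM, totals without the 10 most abundant genes, a mean of at least 10 counts, a fold of 2, equal depth, an exact conditional binomial test, the edgeR exact test at an assumed coefficient of variation of 0.1 or 0.2, and FPKM with pseudocounts of 0.1 and 1. The FPKM settings replaced only the fold and its direction and kept the Z test on counts.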

Additional observations from a re-analysis of the deposited data

Results flagged for a closer look

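Listed genes that were called in opposite directions in the 2 regions are given here with the log2 fold change of DR-AL over DR in the hypothalamus and then in the hippocampus. With 1 library per diet and region, the difference between regions was not tested. Of 9 striatal genes, 3 fell and 1 rose in the hypothalamus, and all 9 rose in the hippocampus. Gpr6 (-0.50 and 1.44) and Drd1a (-0.41 and 1.14) were among the 3, and Drd2 rose in both regions (0.52 and 1.72). The peptide genes Tac1 (-0.57 and 1.01) and Pdyn (-0.39 and 0.59) are at least 4-fold higher in the AL hypothalamus than in the AL hippocampus. Both also fell in the hypothalamus and rose in the hippocampus. Transcription factors of the hypothalamus did the same, Fezf1 (-0.85 and 3.32), Nkx2-1 (-0.54 and 1.58), Isl1 (-0.53 and 2.45), Otp (-0.42 and 4.40) and Six3 (-0.36 and 2.17), with Fezf1 at 0 and 4 counts and Otp at 0 and 9 counts in the DR and DR-AL hippocampus. So did the choroid plexus genes Kl (-0.67 and 0.64), Aqp1 (on a locus shared with Fam188b) (-0.40 and 0.45) and Clic6 (-0.37 and 0.94). The others were Dio3 (-1.22 and 0.45), Acta2 (-1.08 and 0.33), Myh11 (-0.89 and 0.39) and Lepr (-0.82 and 0.46). The reverse held for Neurod6 (0.79 and -0.45).

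Among loci without a gene name, which enter no comparison above, 7403 had counts in the hypothalamus and 162 changed between DR and DR-AL (2.19%), 76 up and 86 down.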

How the results depend on the processing

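No paired analysis was possible because each diet has 1 library, and for the same reason no replicate could be left out and DESeq2 could not be fitted. The number of changed genes, 1858 with library totals, was 852 with FPKM and a pseudocount of 1 (445 of them down), 594 at a fold of 2 (162 up and 432 down), 366 at a coefficient of variation of 0.1 (74 up and 292 down) and 112 at 0.2 (17 up and 95 down). Counting only even genes in no region, cell type or added list, an alternative chosen after seeing the data, gave 811 (242 up and 569 down). The 66 genes up and 271 down by 2-fold became 12 and 54 with FPKM and a pseudocount of 1, 31 and 114 at a mean of at least 100 counts, and 893 and 1400 with no minimum, and 165 fell with FPKM and a pseudocount of 0.1. The median of hypothalamus-rich genes was -0.0985 with DESeq2 size factors, -0.0971 with TMM, -0.0518 and -0.0271 with FPKM at pseudocounts of 0.1 and 1, and -0.22 for genes 8-fold apart in the AL libraries. Hippocampus-rich genes had medians of 0.0064 with FPKM at a pseudocount of 0.1, 0.0025 at a mean of at least 100 counts and -0.158 for genes 8-fold apart. Even genes had 0.0082 with DESeq2 size factors, 0.0096 with TMM, 0.0586 and 0.0470 with FPKM at 0.1 and 1, and -0.0258 at a mean of at least 100 counts. The median of all genes moved by 0.0373 with DESeq2 size factors and by 0.0851 with FPKM at 0.1. DESeq2 size factors and TMM move all genes by nearly the same amount, so they cannot change the order of the class medians. With FPKM at 0.1 and 1, the median of hypothalamus-rich genes stayed below that of even genes. In the hippocampus, 178 genes rose and 98 fell at a fold of 2, and 53 and 4 at a coefficient of variation of 0.1. Genes up in both regions numbered 12 at a fold of 2 and 9 at a coefficient of variation of 0.1, genes down in both 16 and 2, genes down in the hypothalamus and up in the hippocampus 7 and 0, and the reverse 3 and 0. The causes of these differences were not tested.

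Of 555 single genes, those called kept their direction under each scaling, and the others were not checked for reversal. Size factors and totals move all genes by nearly the same small amount, which could not reverse a call. Calls were lost by 7 with DESeq2 size factors, 8 with TMM, 1 without the 10 most abundant genes, and 18 and 48 with FPKM at 0.1 and 1. Depth limits genes with few counts, and the lack of replicates limits every call.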
